A study of Homo sapiens with 6 samples.

Results

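Glutathione S-transferases (GSTs) are the enzymes examined here, as 10 genes chosen by symbol: GSTM1, GSTM2, GSTM3 and GSTM4 of the cytosolic mu class, GSTP1 of the pi class, GSTA4 of the alpha class, GSTO1 of the omega class, the mitochondrial and peroxisomal GSTK1 of the kappa class, and the membrane-bound MGST1 and MGST3. All 10 symbols were found among the 36459 genes of the count table, and all 10 passed the filter on low counts. RNA was measured in PC9, a human lung adenocarcinoma line driven by mutant EGFR, in 3 parental libraries and in 3 persister libraries. Parental cells carried no drug treatment label. Persister cells, here also PSPC9, were those left after 6 days of continuous erlotinib at 15 µM, a drug that blocks the EGFR kinase. According to the methods of the study, each persister library pooled several dishes, whereas the parental libraries came from separate cultures, so the spread within the groups does not measure quite the same thing. Both groups are a single cell line in culture, and in a bulk library survivors that differed beforehand and cells that changed in the drug cannot be told apart. Total gene counts lay between 29476725 and 34893782 per library, and the libraries of a group differed from each other by more than sampling noise.

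GSTs join the tripeptide glutathione to electrophiles, which makes drugs, quinones and lipid peroxidation products more soluble and marks them for export by ABC transporters and for processing to mercapturates. Several members also carry glutathione-dependent peroxidase or isomerase activity, and the membrane-bound MGSTs act on oxidised lipids within the bilayer. Many GST genes are classical targets of the transcription factor NRF2, which binds the antioxidant response element, and GSTP1 is the main GST of many carcinomas, lung carcinoma included. Persister cells are of interest because they lean on glutathione-dependent defence against lipid peroxidation, the process whose failure leads to ferroptosis.

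The mu-class genes lie side by side on chromosome 1 and resemble each other closely, which matters for how their reads were assigned. In the GENCODE 44 annotation of GRCh38, GSTM4 lies at chr1:109656099-109665496, GSTM2 at chr1:109668022-109709551 and GSTM1 at chr1:109687814-109709039, all on the plus strand. GSTM3 lies at chr1:109733932-109741038 on the minus strand, and the annotated span of GSTM2 covers that of GSTM1. The first 90 bases of the GSTM4 coding sequence and the aligned bases of its nearest relatives are shown because they make the resemblance visible. They were taken from the GENCODE 44 reference transcripts of each gene, from the start codon on, and capitals mark bases that differ from GSTM4.
GSTM4: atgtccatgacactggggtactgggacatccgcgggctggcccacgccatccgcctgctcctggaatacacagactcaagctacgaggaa
GSTM1: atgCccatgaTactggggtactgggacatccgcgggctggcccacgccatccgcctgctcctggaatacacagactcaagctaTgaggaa
GSTM2: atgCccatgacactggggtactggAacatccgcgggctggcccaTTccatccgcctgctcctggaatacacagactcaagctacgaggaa
GSTM5: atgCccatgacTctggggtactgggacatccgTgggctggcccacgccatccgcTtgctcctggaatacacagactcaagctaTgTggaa
Within these 90 bases GSTM1 differed from GSTM4 at 3 positions, GSTM2 at 4 and GSTM5 at 6. Over the whole coding sequence of 657 bases, GSTM4 was 92.1% identical to GSTM1, 89.0% to GSTM2 and 88.0% to GSTM5. GSTM3, with 678 coding bases, stood apart at 72.6% identity to GSTM4. Kallisto assigns reads by words of 31 bases, and 71.3% of such words in the reference transcript of GSTM1 also occurred in a transcript of another gene. Of all GSTM1 words, 50.8% occurred in GSTM2, 33.8% in GSTM4 and 30.7% in ENSG00000260246, a gene with no symbol in the annotation. The share was 56.1% for GSTM2 and 30.9% for GSTM4, but 11.9% for GSTM3, 9.71% for GSTO1 (shared with its pseudogene GSTO3P), 3.90% for MGST3 and 0.141% for GSTP1, and it was 0 for GSTA4, GSTK1 and MGST1. These shares cover the reference transcripts only. For GSTP1 that transcript, GSTP1-202, held 1.67% of the parental and 1.90% of the persister counts. The transcript outside the annotation that matched the rest was not searched. Among the transcripts searched, the assignment of reads is thus least certain for GSTM1 and GSTM2, and GSTM4 shares the ambiguity to a lesser degree.

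Levels are given as CPM, the counts scaled to a common library size with edgeR's TMM factors. The family did not move in a single direction. GSTM4 rose 3.47-fold in persister cells, GSTM1 and GSTM3 rose less, GSTO1, GSTA4, MGST1 and GSTK1 fell, and GSTP1, GSTM2 and MGST3 did not pass the test. GSTM1 had at most 42 counts per library, and its rise did not pass the test under 10 of 16 alternatives. Of the 10 members, 3 were higher and 4 lower at an adjusted p-value under 0.01 by edgeR's quasi-likelihood test. This count has to be read against the whole table, in which 56.8% of 14626 tested genes were called, 28.7% higher and 28.1% lower. The count of 7 of 10 is thus near the share among all genes, and the size and order of the changes, given next, say more than the count. The groups did not overlap for 8 of the 10 members, where 71.3% of all tested genes did not overlap. For GSTM1 and GSTM2 the margin was narrow. Their highest parental and lowest persister libraries were at 0.705 and 0.762 CPM and at 2.380 and 2.383 CPM. The median log2 fold change was 0.017 over the members and -0.006 over all tested genes.

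**Figure D1:**
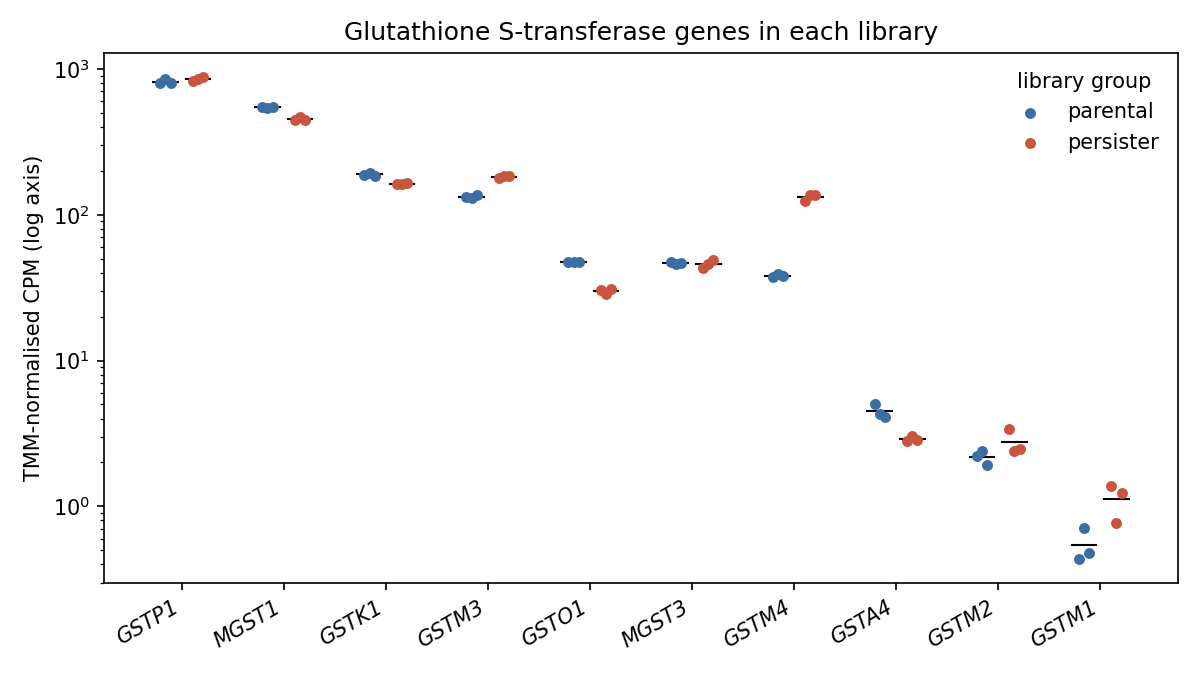
Level of each of the 10 GST genes in the 6 libraries, in TMM-normalised CPM on a log axis, with the genes ordered by their parental mean. Points are libraries (blue parental, red persister) and short lines are group means; GSTM4 stands out by its gap between the groups, and GSTP1 and MGST3 by the overlap of their points.

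GSTM4, which encodes a mu-class enzyme, changed the most. Its TMM-normalised level was 37.2, 39.2 and 37.8 CPM in the 3 parental libraries and 123, 136 and 137 CPM in the 3 persister libraries. The lowest persister library, at 123 CPM, lay far above the highest parental one, at 39.2 CPM. The log2 fold change was 1.80 (SE 0.0509, adjusted p = 3.51e-10, edgeR quasi-likelihood test with Benjamini-Hochberg adjustment), which placed GSTM4 at rank 111 of the 14626 tested genes by p-value.

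GSTM3, a mu-class gene best known from brain and testis, started higher and rose less. It was at 131, 130 and 136 CPM in parental and at 178, 184 and 184 CPM in persister libraries, without overlap. The log2 fold change was 0.46 (SE 0.0366, adjusted p = 9.66e-07, edgeR).

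GSTM1, the gene that a common inherited deletion removes in many people, was close to the limit of what these libraries could measure. Its estimated counts were 15, 24 and 16 in parental and 40, 24 and 42 in persister libraries, which is 0.436, 0.705 and 0.475 CPM against 1.37, 0.762 and 1.23 CPM. The highest parental and the lowest persister library were nearly level, at 24 counts each. The log2 fold change was 1.05 (SE 0.296) with an adjusted p of 0.00882 by edgeR's quasi-likelihood test, just inside the limit of 0.01. Of 16 alternatives, 10 put the adjusted p above that limit. Those that only set the limit to 0.05 or asked for a fold change above 2 reused this fit and its p-value. Leaving out a single library was enough, with an edgeR adjusted p of 0.0279 without parental replicate 1, 0.0359 without parental replicate 3, 0.0416 without persister replicate 1 and 0.0365 without persister replicate 3. GSTM1 counts amounted to 1.17%, 1.80% and 1.26% of the GSTM4 counts in parental libraries and to 1.11%, 0.561% and 0.896% in persister libraries. Given the 33.8% of GSTM1 words shared with GSTM4, GSTM1 reads and misassigned GSTM4 reads cannot be told apart from these tables, and whether PC9 carries the GSTM1 gene was not examined.

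GSTM2, the mu-class enzyme most studied for its handling of dopamine-derived quinones, was detected at 2.21, 2.38 and 1.93 CPM in parental and at 3.39, 2.38 and 2.49 CPM in persister libraries. The groups were apart only by a narrow margin, with a parental and a persister library almost equal. The log2 fold change of 0.33 (95% interval -0.041 to 0.71) did not pass the test (adjusted p = 0.103, edgeR).

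A read that fits several of GSTM1 to GSTM5 stays within their sum however it was divided among them, so the counts of GSTM1 to GSTM5 were also summed and tested as 1 gene. Reads that fit a gene outside the class, such as ENSG00000260246 or GSTM2P1, can still leave the sum. The sum was 171, 172 and 176 CPM in parental and 306, 323 and 325 CPM in persister libraries. The class rose by a log2 fold change of 0.88 (SE 0.0371, adjusted p = 6.85e-09, edgeR), which is 1.84-fold. The make-up of the class shifted at the same time. GSTM4 took 22.0% ± 0.701 (SD, n = 3) of the class counts in parental and 41.5% ± 1.07 in persister libraries, a difference of 19.5 percentage points with no overlap between the groups (two-sided exact permutation test, p = 0.1, the smallest that 3 against 3 libraries allow). GSTM3 went from 76.4% ± 0.910 to 57.3% ± 0.799 of the class. Such shares of counts grow with transcript length. Per kilobase of reference transcript, GSTM4 was at 94.7 and GSTM3 at 44.2 CPM in persister libraries, where GSTM3 may be understated. GSTM5 had 3 counts in all 6 libraries together.

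**Figure D2:**
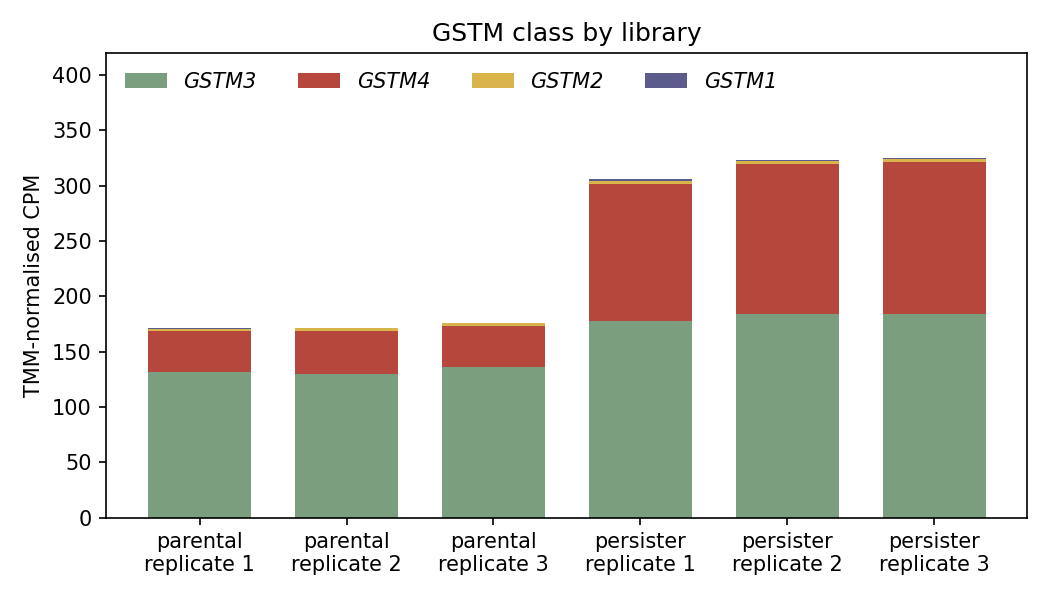
Stacked TMM-normalised CPM of the mu-class genes in each library, from 0 and not scaled by transcript length. The GSTM4 segment grows from about the height of 37 to 39 CPM in parental libraries to 123 to 137 CPM in persister libraries, while GSTM3 stays the largest segment in every library and GSTM1 and GSTM2 are thin slivers at the top.

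The protein-coding genes around the mu-class cluster moved less than GSTM4. Within 250 kb on either side of the cluster from GSTM4 to GSTM5, 9 other protein-coding genes were tested. Genes of other types were not considered. AMPD2, an AMP deaminase gene and the nearest of the 9 upstream of GSTM4, rose by a log2 fold change of 0.22 (adjusted p = 0.00413, edgeR). AHCYL1, at the far side beyond GSTM3, fell by 0.33 on the log2 scale (adjusted p = 4.58e-06, edgeR). The other 7 did not pass the test, with log2 fold changes between -0.66 for SYPL2 and 0.28 for ATXN7L2. The 2 of 9 compares with the 56.8% called among all tested genes of any type.

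GSTP1 was the most abundant member in every library and differed little between the groups. It is the pi-class enzyme that also binds the kinase JNK, and it lies at chr11:67583742-67586656. Its level was 795, 855 and 805 CPM in parental and 825, 852 and 879 CPM in persister libraries. The ranges overlapped. The log2 fold change was 0.058 with a 95% interval from -0.030 to 0.146 (adjusted p = 0.214, edgeR).

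GSTO1 and GSTA4 fell by the largest factors. GSTO1 (chr10:104235356-104267459), an omega-class enzyme with thioltransferase and dehydroascorbate reductase activity, was at 47.6, 47.1 and 47.3 CPM in parental and at 30.6, 28.7 and 31.1 CPM in persister libraries. The groups lay far apart relative to their spread, with a log2 fold change of -0.65 (SE 0.0467, adjusted p = 4.22e-07, edgeR). GSTA4 (chr6:52977948-52995304, minus strand), the alpha-class enzyme specialised on 4-hydroxynonenal, a product of lipid peroxidation, was scarcer, at 5.06, 4.29 and 4.07 CPM against 2.81, 3.05 and 2.87 CPM. All 3 persister libraries were below all 3 parental ones, with a log2 fold change of -0.62 (SE 0.123, adjusted p = 0.00103, edgeR).

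GSTK1, MGST1 and MGST3 encode the members tied to organelles and membranes, and they fell slightly or stayed within their spread. MGST1 (chr12:16347142-16609259), a membrane-bound enzyme with glutathione peroxidase activity towards lipid hydroperoxides, was at 544, 541 and 550 CPM in parental and at 447, 465 and 446 CPM in persister libraries. It fell by 17.0% (log2 fold change -0.27, SE 0.033, adjusted p = 2.97e-05, edgeR). GSTK1 (chr7:143244093-143270854) was at 188, 193 and 185 CPM against 162, 162 and 164 CPM, which is a fall by 13.9% (log2 fold change -0.22, SE 0.0343, adjusted p = 0.000212, edgeR). Neither gene overlapped between the groups. MGST3 (chr1:165631213-165661796), whose product also conjugates leukotriene A4, was at 47.2, 45.7 and 47.0 CPM in parental libraries and spread from 42.9 through 45.6 to 48.9 CPM in persister libraries. The persister values enclosed the parental ones, and the log2 fold change of -0.024 had a 95% interval from -0.141 to 0.092 (adjusted p = 0.701, edgeR).

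Added up, the 10 members gave nearly the same level in both groups. The sum was 1799, 1858 and 1815 CPM in parental and 1817, 1879 and 1897 CPM in persister libraries, with overlapping ranges. Within it, GSTP1 supplied 44.9% of the parental and 45.7% of the persister total, MGST1 29.9% and 24.3%, and GSTK1 10.4% and 8.72%. GSTM4 went from 2.09% to 7.08%, and GSTM3 from 7.25% to 9.77%. These are shares of counts, which grow with transcript length.

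Levels of different genes were compared per kilobase of the annotated reference transcript. On that scale GSTP1 came first in parental libraries at 1104 ± 43.1 CPM per kb (SD, n = 3), followed by MGST1 at 590 ± 5.01 and GSTK1 at 183 ± 3.57. GSTO1 came next at 58.2 ± 0.342, then MGST3 at 40.3 ± 0.695, GSTM3 at 32.1 ± 0.772 and GSTM4 at 27.3 ± 0.730. The low end held GSTA4 at 3.61 ± 0.418, GSTM2 at 1.86 ± 0.194 and GSTM1 at 0.463 ± 0.125 CPM per kb. No neighbours in the parental order had overlapping libraries. In persister libraries GSTM4 moved up to the fourth place, at 94.7 ± 5.52 CPM per kb, behind GSTK1 at 158 ± 1.06. GSTM3 followed at 44.2 ± 0.851, MGST3 at 39.5 ± 2.61 and GSTO1 at 37.1 ± 1.56, of which the last pair had overlapping libraries, and so had GSTM2 at 2.36 ± 0.476 and GSTA4 at 2.35 ± 0.101. The value of GSTM3 is understated on this scale if shorter transcripts supply its reads, because its reference transcript is 4122 bases long. That transcript, GSTM3-202, held 16.9% of the parental and 17.8% of the persister GSTM3 counts. GSTP1-202, the reference transcript of GSTP1 at 741 bases, held 1.67% of the parental and 1.90% of the persister GSTP1 counts. The rest matched a transcript outside the annotation, whose length was not examined. GSTM2-201, the reference transcript of GSTM2, held 2.88% and 5.65% of the GSTM2 counts. The places of GSTP1, GSTM2 and GSTM3 on this scale thus rest on transcripts that supplied a minor part of their counts.

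In the transcript table the main transcripts of GSTM4, GSTO1, GSTK1 and MGST1 passed the test in the direction of their genes. Of 102 annotated member transcripts found in it, 89 had counts, 52 were tested, and 8 passed the test, 5 higher and 3 lower, where 7.8% of 54499 tested transcripts were called. With any of the 6 libraries left out, between 2 and 5 member transcripts passed. GSTM4-203, which supplied 82.7% of the parental and 84.1% of the persister GSTM4 counts, was at 30.3, 33.5 and 32.1 CPM in parental and at 105, 112 and 115 CPM in persister libraries. Its log2 fold change of 1.79 (SE 0.0576, adjusted p = 4.18e-05, edgeR) was that of the gene. The smaller GSTM4-201 went from 4.55 ± 0.0960 to 10.9 ± 1.47 CPM (SD, n = 3), a log2 fold change of 1.27, and GSTM4-202 and GSTM4-209 rose from 0.299 ± 0.108 and 0.120 ± 0.0530 CPM to 1.82 ± 0.191 and 1.15 ± 0.222 CPM. The transcripts that fell were GSTO1-202 (log2 fold change -0.68), GSTK1-201 (-0.28) and MGST1-205 (-0.30), each of which held at least 82.3% of its gene's counts in both groups. GSTM3-204 rose by a log2 fold change of 0.55 (adjusted p = 0.00154, edgeR), and it held 22.3% of the parental and 24.1% of the persister GSTM3 counts, whereas GSTM3-201 was at 24.3 ± 1.14 CPM in parental and 23.7 ± 2.00 CPM in persister libraries and did not pass the test (adjusted p = 0.819, edgeR). The main transcripts of GSTA4 and GSTM1 did not pass, GSTA4-203 at an adjusted p of 0.135 and GSTM1-201 at 0.0371 (edgeR), although both genes were called.

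**Figure D3:**
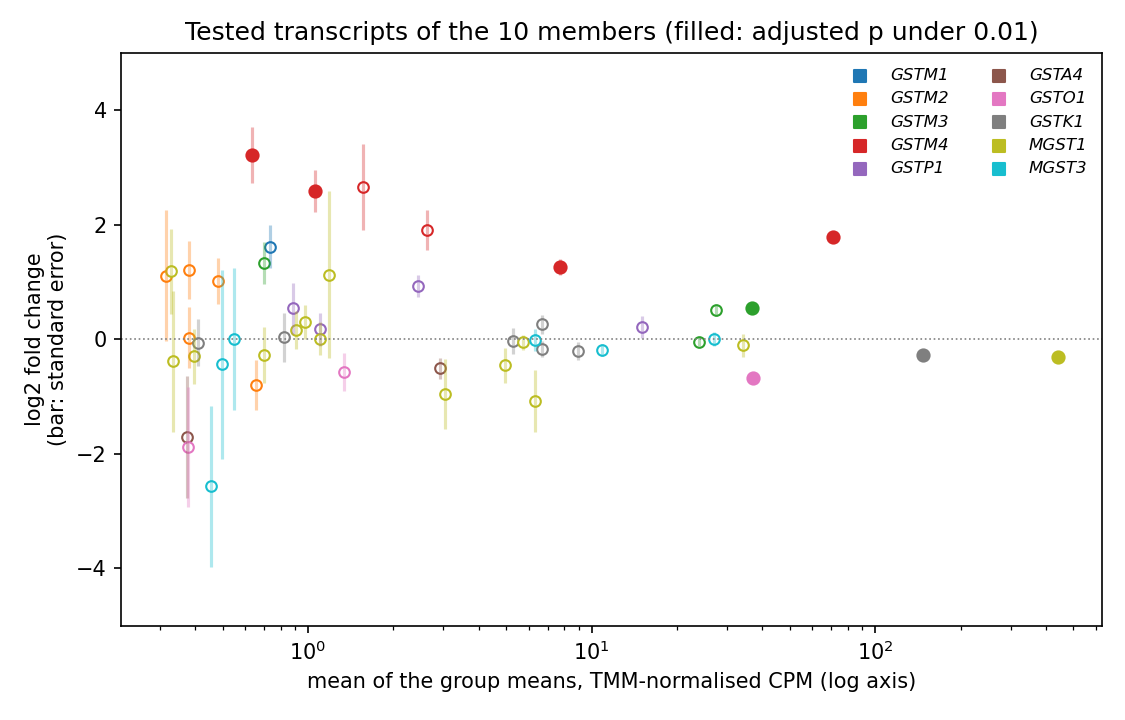
Log2 fold change of the 52 tested member transcripts (persister against parental, bars are standard errors) against their mean level in TMM-normalised CPM on a log axis, coloured by gene. The filled points passed the test; those of GSTM4 lie at log2 fold changes between 1.27 and 3.22, and those of GSTO1, GSTK1 and MGST1 lie below 0.

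None of the 9 members with several tested transcripts changed its transcript usage at an adjusted p under 0.01 by edgeR's diffSpliceDGE, where 1.93% of 10545 tested genes did. The unadjusted p-values of these 9 genes were between 0.151 for GSTM3 and 0.919 for GSTK1, so 0 of them were under 0.05. Usage could be tested only in part for GSTP1 and GSTM3, because the annotated transcripts held 2.37% of the GSTP1 and 56.6% of the GSTM3 gene counts. For each gene, the missing counts equalled, within 5 counts in all 6 libraries, those of a single deposited transcript that the annotation used here does not list. The transcript matching GSTP1 had a log2 fold change of 0.026 (adjusted p = 0.756, edgeR) and the transcript matching GSTM3 one of 0.50 (adjusted p = 0.0015, edgeR). Their gene was inferred from the equal counts alone.

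Promoters were searched for short motifs because several GST genes are textbook targets of NRF2. RefSeq promoters on GRCh38.p14, 250 bases before to 50 after each gene start, were available for all 10 members. The core of the antioxidant response element, TGACNNNGC on either strand, occurred in 5 of the 12 promoter windows of the members, against 13.3% of all 35116 promoters. The 5 windows belonged to GSTM1, GSTA4, GSTO1, GSTP1 and MGST1, and MGST1 has 3 windows, of which 1 held the core, 30 bases after its start. These genes include GSTM1, which was called higher, GSTA4, GSTO1 and MGST1, which were called lower, and GSTP1, which was not called. The sequences of GSTM4, GSTO1 and GSTP1 are shown as the member that rose most, the member that fell most and the most abundant member, each on its plus strand, with the core in capitals.
GSTM4, chr1:109655849-109656148: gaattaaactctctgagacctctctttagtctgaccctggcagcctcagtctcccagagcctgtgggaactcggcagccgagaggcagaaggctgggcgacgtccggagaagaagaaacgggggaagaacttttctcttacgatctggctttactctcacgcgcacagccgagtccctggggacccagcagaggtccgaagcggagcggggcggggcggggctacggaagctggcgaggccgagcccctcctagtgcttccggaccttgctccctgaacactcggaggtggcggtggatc
GSTO1, chr10:104254642-104254941: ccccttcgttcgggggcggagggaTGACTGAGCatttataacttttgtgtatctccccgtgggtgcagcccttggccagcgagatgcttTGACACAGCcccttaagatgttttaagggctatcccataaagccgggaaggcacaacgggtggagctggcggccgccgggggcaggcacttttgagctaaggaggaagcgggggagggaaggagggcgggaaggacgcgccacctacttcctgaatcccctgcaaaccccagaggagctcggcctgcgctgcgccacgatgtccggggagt
GSTP1, chr11:67583562-67583861: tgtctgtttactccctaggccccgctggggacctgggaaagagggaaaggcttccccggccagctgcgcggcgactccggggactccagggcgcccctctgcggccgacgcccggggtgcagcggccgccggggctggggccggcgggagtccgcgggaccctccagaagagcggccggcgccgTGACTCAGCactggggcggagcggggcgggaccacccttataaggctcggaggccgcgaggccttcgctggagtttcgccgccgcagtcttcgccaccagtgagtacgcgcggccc
The GSTO1 promoter held the core 226 and 161 bases before the start, and the GSTP1 promoter held it 66 bases before the start, where it overlapped the AP-1 motif TGANTCA. The AP-1 motif was found in none of the other 9 members and in 7.71% of all promoters. The GSTM4 window held neither. It held the xenobiotic response element core GCGTG, the letters bound by the AHR and ARNT pair, 93 bases before the start. There the core lies on the opposite strand, so the sequence above reads cacgc. On either strand the core also occurred in the windows of GSTM3 and MGST3, at other positions, and in 36.5% of all promoters. TGATGNAA, the composite C/EBP and ATF element, was found in 0 of the 10 members and in 3.62% of all promoters. A match is a string of letters, not a measured binding site, and no match says nothing beyond these windows.

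Other genes of the GST superfamily moved both ways as well. Of 18 further genes listed, 8 were tested, of which 3 were higher and 4 lower in persister cells. That is 87.5% called, where 56.8% of all tested genes were. The number lower was 2 without parental replicate 2, parental replicate 3, persister replicate 1 or persister replicate 2. The largest difference was in ALOX5AP, a membrane protein of the MGST-related MAPEG family that presents arachidonic acid to 5-lipoxygenase. It was at 0.167 ± 0.0466 CPM in parental and 3.49 ± 0.397 CPM in persister libraries (SD, n = 3), a log2 fold change of 4.36 (adjusted p = 5.49e-08, edgeR). The relatives that make prostaglandin E2, PTGES and PTGES2, rose by log2 fold changes of 0.24 and 0.38. Lower were GSTO2, the neighbour and paralog of GSTO1 (4.02 ± 0.189 to 1.49 ± 0.129 CPM, log2 fold change -1.43), LTC4S, the leukotriene C4 synthase (-0.999, from 0.804 ± 0.112 to 0.398 ± 0.106 CPM), MGST2 (-0.54) and GSTZ1 of tyrosine breakdown (-0.18, adjusted p = 0.00845, edgeR). GSTCD was at 15.9 ± 2.15 and 19.3 ± 1.71 CPM and did not pass the test (adjusted p = 0.0281, edgeR). The remaining 10, including the hepatic GSTA1 and GSTA2 and the theta-class GSTT1, had at most 7 counts in any library, and GSTA3, GSTA5 and HPGDS had 0 in all 6.

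**Figure D4:**
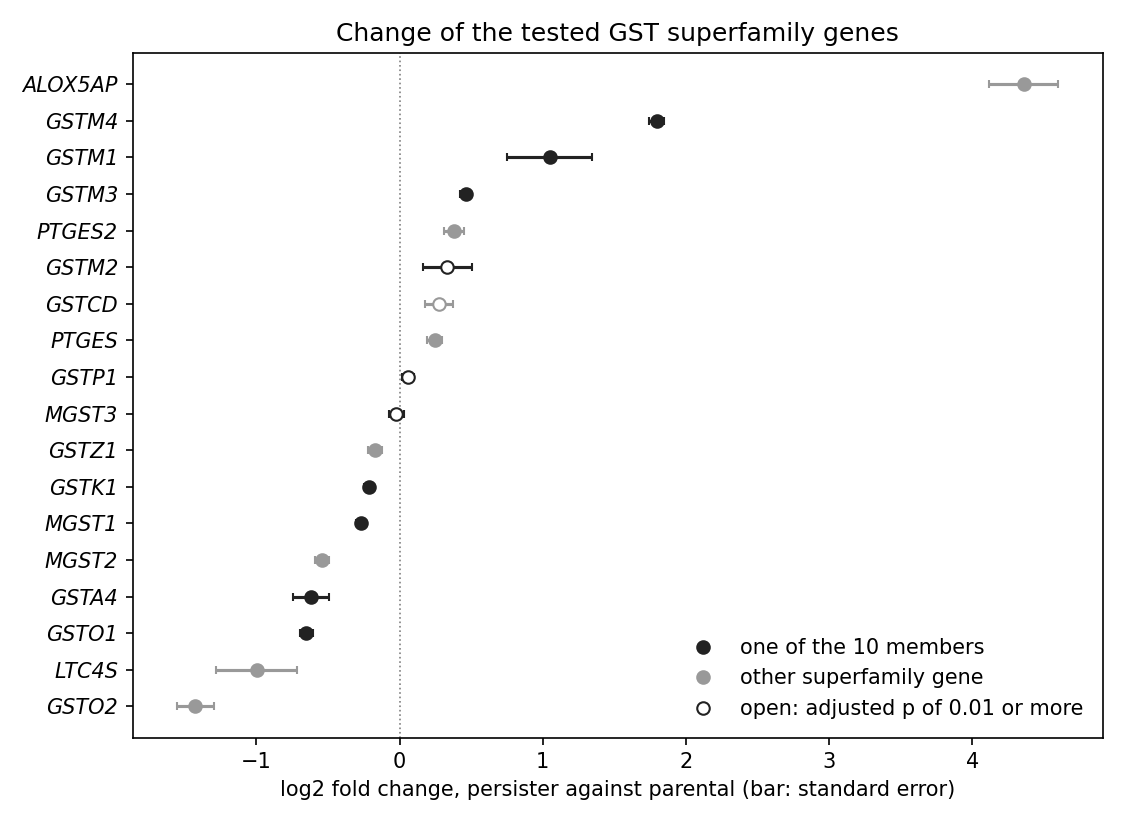
Log2 fold change (persister against parental) with its standard error for the 18 tested genes of the GST superfamily. Black points are the 10 members, grey points the other 8, and open points did not pass the adjusted p limit of 0.01; the values run from -1.43 for GSTO2 to 4.36 for ALOX5AP.

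The genes that supply glutathione, the co-substrate of the GSTs, moved both ways. Of 14 genes of glutathione synthesis and recycling, all tested, 7 were higher and 5 lower, with a median log2 fold change of 0.32. These called genes made up 85.7% of the list, against 56.8% of all tested genes. Over all tested genes, 28.7% were higher and 28.1% lower. The genes with the largest changes were CHAC1, which degrades glutathione (5.13 ± 0.657 to 33.5 ± 1.80 CPM, log2 fold change 2.71), SLC3A2, the heavy chain of the cystine transporter (1.73), and CTH, which makes cysteine from cystathionine (1.24). In the same list GCLC, the catalytic subunit of the rate-limiting ligase, fell by 0.86 on the log2 scale and GSR, the glutathione reductase, fell by 0.48.

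Of the genes that act downstream of the GSTs, 8 of 13 tested were lower. In the list of conjugate export and mercapturate formation, 13 of 19 genes were tested. Of these 4 were higher (30.8%) and 8 lower (61.5%), where all tested genes had 28.7% and 28.1%. With any of the 6 libraries left out, 3 were higher and 7 or 8 lower. The median log2 fold change was -0.41. ANPEP, an aminopeptidase that trims the conjugates, went from 206 ± 5.59 to 66.6 ± 1.37 CPM (log2 fold change -1.63). The export pumps ABCC3 and ABCC2 had log2 fold changes of -1.38 and -1.35. ABCC4 and ABCG2 were among the 4 that rose, by log2 fold changes of 0.84 and 0.89.

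Among 16 glutathione peroxidases, glutaredoxins and other glutathione-dependent enzymes, all tested, 8 were higher and 3 lower, with a median log2 fold change of 0.15. In this list 68.8% were called, where 56.8% of all tested genes were. Without parental replicate 3, 5 were higher and 3 lower. The number higher was 6 without persister replicate 1, 2 or 3. GPX3, the secreted peroxidase, rose from 70.6 ± 3.83 to 153 ± 9.97 CPM (log2 fold change 1.12), GLRX2 rose by 0.81 and the gut-type GPX2 fell by 0.94 on the log2 scale. GPX4, which reduces phospholipid hydroperoxides, was at 310 ± 7.31 and 313 ± 15.2 CPM and did not pass the test (adjusted p = 0.765, edgeR).

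The RNA of NRF2 itself was level, while most of its listed target enzymes were lower. NFE2L2, which encodes NRF2, was at 230 ± 5.77 and 231 ± 3.11 CPM (adjusted p = 0.962, edgeR). Of 11 regulators of the pathway 4 were higher and 2 lower, with a median log2 fold change of 0.0021. These 54.5% called are near the 56.8% of all tested genes. The largest changes were in MAFF (-1.44) and MAFK (0.74), small MAF partners of NRF2, and in SQSTM1 (0.73), which binds KEAP1. Of 25 target enzymes, all tested, 7 were higher (28.0%) and 17 lower (68.0%), with a median log2 fold change of -0.30. The shares over all tested genes were 28.7% and 28.1%. AKR1B10, an aldo-keto reductase, fell from 469 ± 1.88 to 86.3 ± 0.523 CPM (log2 fold change -2.44), TKT, the transketolase, fell by 1.25 on the log2 scale, and ABCC2, counted in this list too, is given above. TXNRD1 and SLC7A11 were among the 7 that rose, by 0.62 and 1.12. The target list shares 5 genes with the other lists, so the counts are not independent.

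**Figure D5:**
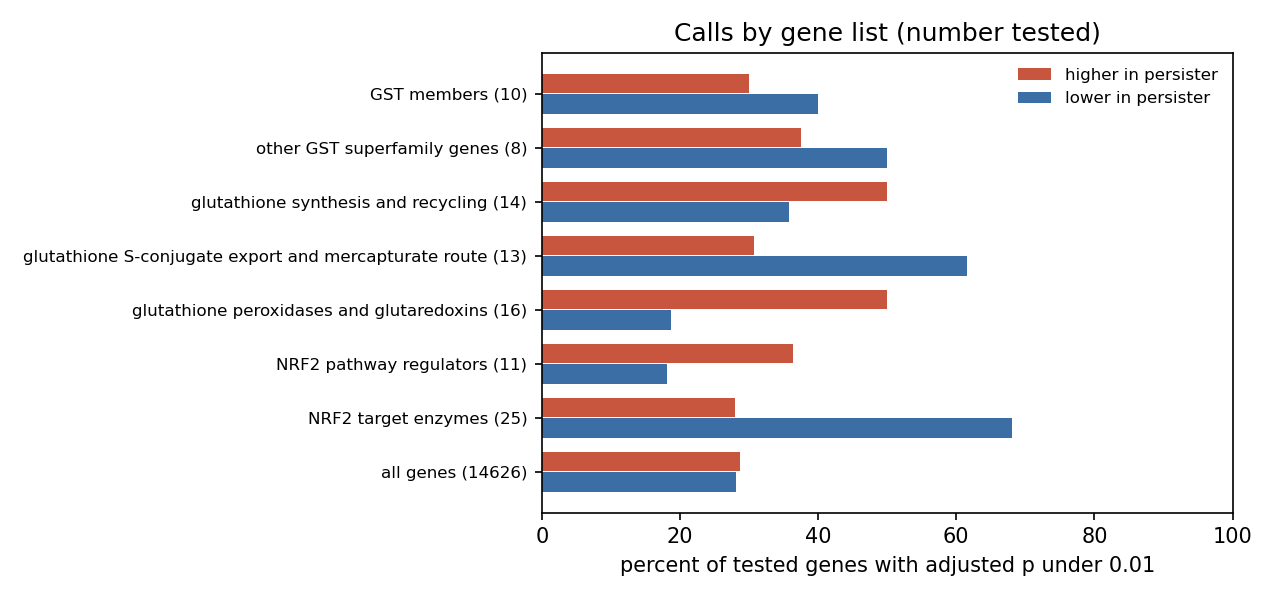
Percent of the tested genes of each list that were higher (red) or lower (blue) in persister libraries at an adjusted p under 0.01, with the number tested in brackets and all tested genes at the bottom. Of the members 3 of 10 were higher and 4 of 10 lower, and the NRF2 target enzymes show the longest blue bar, at 68.0%.

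By a fixed measure of likeness, Pearson's r of log2 CPM over the 6 libraries, GLT8D2 and NRBP1 (both r = 0.9996) were among the tested genes whose pattern was most like that of GSTM4. The genes most like GSTP1 were RHBDD3 (r = 0.9989), NOSIP (r = 0.9977) and TRAF4 (r = 0.9929). With 6 points in 2 groups such values describe the pattern only, and for GSTM4 they mostly restate the gap between the groups.

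The cell type of the libraries was checked on markers. The epithelial markers EPCAM, KRT7, KRT8, KRT18, KRT19, CDH1, CLDN4 and CLDN7 were all present, with a summed level between 8036 and 8675 CPM in parental and between 6388 and 6763 CPM in persister libraries. They did not move together. The 2 that were higher were KRT7 and CDH1, with log2 fold changes of 0.46 and 0.60, and 5 were lower, KRT19 the most (-1.03). Summed fibroblast markers were between 10.5 and 11.0 CPM against 27.4 and 30.8 CPM, nearly all of it COL1A1, with COL3A1 at 0 in all libraries. Summed leukocyte markers were between 75.2 and 77.4 CPM against 19.97 and 23.03 CPM, nearly all of it the lysosomal CD68, with CD3E at 0. Summed endothelial markers were under 10 CPM in every parental library and between 3.73 and 4.27 CPM in persister libraries, with CLDN5 at 0. Of the 2 endothelial markers tested, PECAM1 was lower, at 4.37 ± 0.394 CPM against 0.214 ± 0.0873 CPM (SD, n = 3), and CDH5 did not pass the test. These sums differed between the groups, and their part in the GST results was not tested. In bulk RNA, fewer cells of a kind and less RNA per cell cannot be told apart.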

How the data were processed

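Bulk RNA-seq of PC9 cells was used, 3 parental and 3 persister libraries, grouped by the sample labels. The authors enriched poly-A RNA, made TruSeq libraries, used FASTP on the paired-end reads, and ran the pseudoaligner Kallisto 0.46.1 against Ensembl transcripts of GRCh38.p13. The authors deposited the estimated counts as whole numbers per gene symbol and per transcript, without normalization, and Kallisto's division of reads among similar genes enters no test as an error. Here edgeR 4.0.16 in R 4.3.3 was fitted to all genes and, separately, to all transcripts (filterByExpr, TMM, glmQLFit and glmQLFTest, no replicate block, Benjamini-Hochberg over all features, limit 0.01). SE is the log2 fold change divided by the square root of F. Mean log2 CPM used a prior count of 2. Transcript usage was tested with diffSpliceDGE. Named genes are the 10 members, other superfamily genes that passed the test, and up to 3 genes per list with the largest change and mean log2 CPM above 1. GSTCD, GCLC, GSR, ABCC4, ABCG2, GPX4, NFE2L2, TXNRD1, SLC7A11 and the mu-class neighbours were named after their values had been seen. A gene that the rule on likeness selects is not reported here. Members, lists and tests were chosen with earlier results of these data known. Of 36459 symbols 27685 and of 188753 transcripts 167067 were matched to GENCODE 44. Alternatives used DESeq2 1.42.0 and limma 3.58.1. The tests were also run on simulated counts with known changes, placed only in features with higher counts, so scarce genes such as GSTM1 were not covered. Replicate numbers were not treated as pairs of libraries. Libraries of another laboratory that the study combined with these were not analysed here.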

Additional observations from a re-analysis of the deposited data

How the results depend on the processing

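The count of 7 changed members was between 6 and 7 with each library left out in turn, and it was 2 (2 higher) when a fold change above 2 was also asked for, which removed GSTA4, GSTK1, GSTM3, GSTO1 and MGST1 by construction. The filter of CPM above 1 dropped GSTM1 from the test. Its call was lost under 10 of 16 other alternatives, with an adjusted p between 0.0107 and 0.0416 in those 10 and down to 0.00347 in the rest: upper-quartile scaling, scaling by library size, DESeq2, limma voom, gene counts summed from transcripts, the replicate block and the omission of parental replicate 1, parental replicate 3, persister replicate 1 or persister replicate 3. The cause was not tested. Without persister replicate 1 the log2 fold change of MGST3 reversed to 0.022, and the lowest with a library left out was -0.076, without persister replicate 3. From summed transcripts, which hold 2.37% of its counts, GSTP1 had a log2 fold change of 0.35 (adjusted p = 0.0224, edgeR). GSTM4 kept its direction and call under all 17 alternatives, with log2 fold changes between 1.74 and 1.85. The alternatives with an adjusted p limit of 0.05 or a fold change above 2 reused the main fit for every gene. The 8 changed transcripts were 14 with DESeq2, 1 with the replicate block, and between 2 and 5 with each library left out, which leaves fewer samples: 4, 4 and 3 without parental replicate 1, 2 and 3, and 5, 2 and 3 without persister replicate 1, 2 and 3. The class sum kept its call under every alternative run. The total of changed genes per list stayed within 1.5 times under the alternatives run for lists (DESeq2's size factors, DESeq2, the replicate block and each library left out). By direction, the lower superfamily genes went from 4 to 2 without parental replicate 2 or 3 or persister replicate 1 or 2. The higher peroxidases and glutaredoxins went from 8 to 5 without parental replicate 3 and to 6 without persister replicate 1, 2 or 3. The higher export and mercapturate genes went from 4 to 3 with each library left out, with DESeq2 and with the replicate block. The higher NRF2 pathway regulators were between 3 and 5 with a library left out. Replicate numbers were not treated as pairs. The correlations of deviations were 0.124, 0.0236 and 0.0215 between same numbers and between -0.117 and 0.0971 for different numbers. With 3 libraries per group these values cannot settle whether the numbers pair the samples. With the replicate block the member count was 6 against 7, with GSTM1 lost. With GSTM1 and GSTM2 left out, which was added with the data in view, 5 superfamily genes were higher and 8 lower of 16, against 6 and 8 of 18. Depth limits GSTM1 and GSTM2, with at most 42 and 99 counts per library.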
